A study of Mus musculus with 6 samples.

Results

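The mRNA levels of 10 genes of fatty acid oxidation and of lipid droplets were followed in mouse blastocysts cultured with human oviductal extracellular vesicles. The genes were *Cpt1a*, *Cpt2*, *Acadm*, *Acadl*, *Acadvl*, *Hadha*, *Hadhb*, *Hadh*, *Plin2* and *Plin3*. They were chosen by name from the pathway, with earlier results of these data known, and each matched a single row of the 55774 in the expression table. The embryos came from wild-type ICR dams aged 6 to 8 weeks and were placed at the 2-cell stage in CZB medium for 75 hours. The medium held vesicles isolated from Fallopian tube fluid of women with endometriosis (oEV-EMT) or from control women without it (oEV-ctrl), at the same particle concentration in both. The sample labels name uterine fibroids for the control donors, whereas the methods of the study name another gynaecological condition. There were 3 libraries per group, each made from 10 pooled blastocysts. None of the 6 libraries came from embryos cultured without vesicles, so levels in oEV-EMT could be set only against levels in oEV-ctrl. No source says which vesicle preparations or litters went into which library, and p-values measure only the spread between these libraries.

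Fatty acids taken up by a cell, or released from its lipid droplets, are activated to acyl-CoA and carried into mitochondria as carnitine esters. CPT1 on the outer mitochondrial membrane makes the ester and CPT2 on the inner membrane turns it back into acyl-CoA. The β-oxidation spiral then shortens the chain in repeated cycles of dehydrogenation, hydration, a second dehydrogenation and thiolysis. Perilipins coat the droplets in which the embryo keeps its triglycerides and limit the access of lipases. Preimplantation embryos are known to draw on these stores, and oxidation of fatty acids is needed for normal development to the blastocyst.

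All values are FPKM, the fragments per kilobase of transcript scaled to the fragments of the library, so that levels can be compared between genes. Sums over all genes lay between 1293175 and 1551567 FPKM per library, and the read totals behind them are not known. Differences were taken as log2(FPKM + 1), oEV-EMT minus oEV-ctrl, and tested with limma over the 11924 genes that reached 1 FPKM in at least 3 libraries. The median log2 fold change over these genes was 0.17, and differences relative to that median are given beside the others. After median-of-ratios scaling, which sets the typical gene equal between libraries, the median was 0.011. Fewer cells of a type and less RNA of a gene in each cell cannot be told apart in such pools.

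All 10 genes were expressed in every library and all 10 passed the filter. None of the 10 met the thresholds of the study, which asked for a 0.05 adjusted p-value or smaller together with a log2 fold change of 1 or more in either direction (limma, Benjamini-Hochberg over all tested genes). Among all tested genes 0 did (0%), and the adjusted p-values of the 10 genes lay between 0.281 and 0.988. The study applied these thresholds with another test, DESeq2, and did report genes past them. The count of 0 from limma on FPKM is therefore not a repeat of its test. Only *Cpt2* separated the groups, with its 3 oEV-EMT values above the 3 control values, and 0 of the 10 lay below without overlap. Among all tested genes, 18.1% lay above without overlap and 4.34% below. *Cpt2* was also the only gene of the 10 with an unadjusted limma p-value of at most 0.05, a value that 12.8% of all genes reached with higher and 2.55% with lower levels in oEV-EMT. The median log2 fold change of the 10 genes was 0.15, or -0.020 relative to all genes, with 5 genes on either side of the median of all genes.

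**Figure D1:**
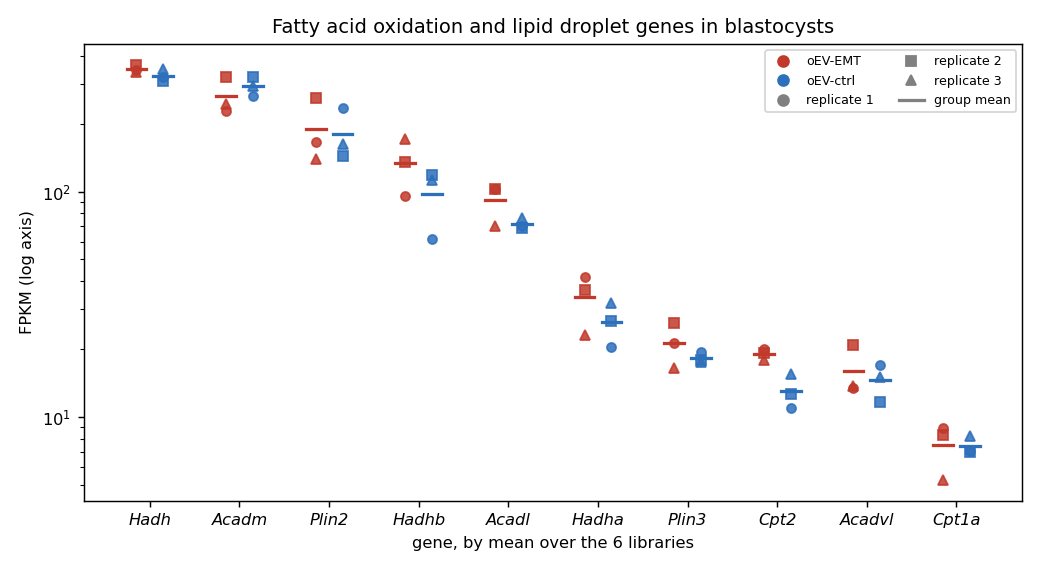
FPKM of the 10 genes on a log axis, ordered by their mean, with a point for each library and a bar for each group mean. *Cpt2* is the only gene in which the red oEV-EMT points all lie above the blue oEV-ctrl points.

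The genes spanned a wide range of levels. *Hadh* was the highest, with a mean of 338 FPKM over the 6 libraries, followed by *Acadm* (279), *Plin2* (185), *Hadhb* (116), *Acadl* (81.7), *Hadha* (30.1), *Plin3* (19.8), *Cpt2* (16.0), *Acadvl* (15.3) and *Cpt1a* (7.46). Of neighbours in this order, only *Acadl* and *Hadha*, and *Acadvl* and *Cpt1a*, had ranges over the 6 libraries that did not overlap. *Hadh* exceeded *Acadm*, *Plin2* exceeded *Hadhb* and *Plin3* exceeded *Cpt2* in 5 of 6 libraries each, and *Hadhb* exceeded *Acadl* and *Cpt2* exceeded *Acadvl* in 4 of 6 each, so the order within these pairs is not settled by the libraries. *Hadh* was the steadiest gene, with a coefficient of variation of 6.05% over the 6 libraries, and *Hadhb* the most variable, with 31.8%.

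The enzymes at the mitochondrial gate were examined first. *Cpt1a* (ENSMUSG00000024900) encodes the CPT1 form of liver and of many other tissues, the step that malonyl-CoA inhibits, and lies on the plus strand of chromosome 19 from 3322334 to 3385733. All gene positions are those of GENCODE M21 on GRCm38. *Cpt1a* measured 8.96, 8.29 and 5.25 FPKM with oEV-EMT and 7.09, 6.97 and 8.18 with oEV-ctrl. Libraries oEV-EMT 1 and 2 were the highest of the 6 and oEV-EMT 3 the lowest, so the oEV-EMT values enclosed the control values on both sides. The log2 fold change was -0.011 with a standard error of 0.24 (limma, 95% interval -0.55 to 0.53), or -0.18 relative to all genes. *Cpt1a* held between 92.7% and 97.8% of the FPKM of the 3 *Cpt1* genes in every library. *Cpt1c*, the brain form, stayed at or under 0.573 FPKM, and *Cpt1b*, the muscle form, was listed at 0 in 4 libraries.

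*Cpt2* (ENSMUSG00000028607) lies on the minus strand of chromosome 4 from 107903981 to 107923610. It measured 20.0, 19.3 and 18.0 FPKM with oEV-EMT and 10.9, 12.6 and 15.5 with oEV-ctrl. The oEV-EMT libraries lay close together and all above the controls, and the nearest pair, oEV-EMT 3 and oEV-ctrl 3, differed by less than the range of the control libraries. The group means were 19.1 ± 1.02 and 13.0 ± 2.33 (SD, n = 3 each). The log2 fold change was 0.53 with a standard error of 0.21 (95% interval 0.055 to 1.00, adjusted p = 0.281 from limma), a 1.44-fold higher level. Relative to all genes it was 0.36. After median-of-ratios scaling it was 0.35 and the groups again did not overlap, while 9.81% of all genes lay above and 10.3% below without overlap on that scale. By stretches of 50 bases, 0 other annotated genes share sequence with the *Cpt2* transcripts. The summed level of 6 markers of the epiblast, the pluripotent part of the inner cell mass, also separated the groups, at 106 to 145 FPKM in oEV-EMT and 56.9 to 102 in oEV-ctrl. Of the 6 markers 3 did so singly, and their part in the *Cpt2* difference was not tested.

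The sequences before the start sites of both transferases are shown because the ratio of their mRNAs separated the groups, as described further on. They are from RefSeq on GRCm38.p6, at chr19:3323051-3323284 on the plus strand for *Cpt1a* and chr4:107923611-107923839 on the minus strand for *Cpt2*, without annotated exons. The *Cpt1a* stretch ends 17 bases before the RefSeq start site and lies inside the longer GENCODE gene, and the *Cpt2* stretch ends 22 bases before its start site.
Cpt1a: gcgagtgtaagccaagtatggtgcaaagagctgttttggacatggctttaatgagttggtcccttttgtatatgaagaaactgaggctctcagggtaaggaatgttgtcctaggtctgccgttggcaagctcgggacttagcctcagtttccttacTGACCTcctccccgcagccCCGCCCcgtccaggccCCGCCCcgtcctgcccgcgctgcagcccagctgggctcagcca
Cpt2: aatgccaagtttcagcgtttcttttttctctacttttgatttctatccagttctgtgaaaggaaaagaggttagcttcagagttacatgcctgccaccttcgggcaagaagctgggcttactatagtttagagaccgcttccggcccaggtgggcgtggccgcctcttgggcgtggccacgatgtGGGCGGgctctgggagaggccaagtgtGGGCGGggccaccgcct
Capitals mark the letters GGGCGG, the GC box, and AGGTCA, the half-site bound by nuclear receptors such as the PPARs, on either strand. *Cpt1a* has a half-site on the reverse strand and a pair of GC boxes in this stretch, and *Cpt2* has a pair of GC boxes and no half-site. In windows from 250 bases before the RefSeq start site to 50 bases from it on, the GC box letters occur in 8 of the 10 genes and in 35.6% of 32817 windows of all genes. The only GC box of *Hadha* is a site also counted for *Hadhb*, because the windows of these genes overlap. The half-site letters occur in 4 of the 10 genes (*Cpt1a*, *Acadm*, *Acadvl* and *Plin2*) and in 16.3% of all windows. The letters CCAAT occur in 4 of the 10 against 37.4%, the E-box CACGTG in 1 of the 10 (*Plin2*) against 7.15%, the TATA box TATAAA in 0 of the 10 against 13.6%, and TCAAGGTCA, the element of estrogen-related receptors, which contains the half-site, in 0 of the 10 against 0.424%. These are matches of letters on either strand and not measured binding. The windows of all genes were not matched to those of the 10 for base composition, so the shares do not show enrichment.

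The dehydrogenases that open each cycle of β-oxidation differ in the chain length they accept. *Acadm* (ENSMUSG00000062908, chromosome 3 from 153922357 to 153944632, minus strand) encodes the medium-chain enzyme. It measured 227, 323 and 245 FPKM in oEV-EMT and 264, 323 and 293 in oEV-ctrl. The highest library of each group had nearly the same level, and oEV-EMT 1 and 3 were the lowest of the 6. The log2 fold change was -0.16 with a standard error of 0.20 (limma, 95% interval -0.60 to 0.29), or -0.33 relative to all genes, the lowest of the 10 genes.

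*Acadl* (ENSMUSG00000026003, chromosome 1 from 66830839 to 66863277, minus strand), the long-chain enzyme, measured 102, 102 and 70.0 FPKM in oEV-EMT and 70.3, 68.9 and 76.5 in oEV-ctrl. Libraries oEV-EMT 1 and 2 lay above every control library, and oEV-EMT 3 lay among the controls. Its log2 fold change was 0.32 with a standard error of 0.21 (95% interval -0.15 to 0.80). *Acadvl* (ENSMUSG00000018574, chromosome 11 from 70010183 to 70015411, minus strand), the very-long-chain enzyme of the inner membrane, measured 13.4, 20.9 and 13.7 FPKM in oEV-EMT and 17.1, 11.6 and 15.1 in oEV-ctrl. Library oEV-EMT 2 was the highest and the other values were mixed, with a log2 fold change of 0.11 and a standard error of 0.25 (95% interval -0.44 to 0.67). *Acadvl* overlaps *Dvl2* on the opposite strand over 2119 bases, and 26.9% of its 50-base stretches also occur in *Dvl2* transcripts, which had a mean of 0.813 FPKM. Whether the counting used strand is not given in the sources used here.

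Within the 4 acyl-CoA dehydrogenases of straight chains, *Acadm* held 65.3%, 71.4% and 73.7% of the FPKM in oEV-EMT and 74.7%, 79.7% and 75.6% in oEV-ctrl. *Acadl* held 29.4%, 22.6% and 21.0% against 19.9%, 17.0% and 19.7%, and *Acads*, the short-chain enzyme, held 1.45%, 1.44% and 1.17% against 0.626%, 0.472% and 0.777%. The *Acadm* share was thus lower, and the *Acadl* and *Acads* shares higher, in all 3 oEV-EMT libraries than in the controls. These shares were computed after the levels had been seen. They are tied within a library, since a lower *Acadm* share raises the others, and so are not separate findings. As levels, *Acadm* and *Acadl* overlapped between the groups, while *Acads* lay above in oEV-EMT. The ratio of *Acadm* to *Acadl*, also computed after that, was 2.96 ± 0.665 in oEV-EMT and 4.09 ± 0.520 in oEV-ctrl (SD, n = 3 each; exact two-sided permutation test, p = 0.1, adjusted over 8 ratios 0.267). An exact test of 3 libraries against 3 cannot give a p-value below 0.1.

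Long-chain acyl-CoA then pass to the mitochondrial trifunctional protein, whose α subunit is encoded by *Hadha* and whose β subunit, the thiolase, is encoded by *Hadhb*. *Hadha* (ENSMUSG00000025745) lies on the minus strand of chromosome 5 from 30118304 to 30155162 and *Hadhb* (ENSMUSG00000059447) on the plus strand from 30155248 to 30184593, so that the genes start next to each other and run apart. The RefSeq start sites are 273 bases apart. The whole interval of 85 bases between the annotated genes, at chr5:30155163-30155247, is shown in the direction of *Hadhb*, with the GC box letters in capitals.
Hadha-Hadhb: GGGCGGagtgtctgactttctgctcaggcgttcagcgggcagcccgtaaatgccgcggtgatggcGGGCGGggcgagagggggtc
*Hadha* measured 41.9, 36.6 and 23.2 FPKM in oEV-EMT and 20.3, 26.6 and 32.1 in oEV-ctrl. *Hadhb* measured 95.6, 135 and 170 FPKM in oEV-EMT and 61.4, 118 and 112 in oEV-ctrl. In the oEV-EMT libraries the order of the subunits was opposite, with *Hadha* highest and *Hadhb* lowest in library 1, and *Hadha* lowest and *Hadhb* highest in library 3. The log2 fold changes were 0.33 for *Hadha* (standard error 0.27, 95% interval -0.27 to 0.93) and 0.47 for *Hadhb* (standard error 0.30, 95% interval -0.19 to 1.14), and the groups overlapped in both (limma).

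The *Hadhb* values are uncertain because a processed pseudogene, a copy of a spliced transcript inserted elsewhere in the genome, shares its sequence. *Gm13910* (ENSMUSG00000063684) lies on chromosome 2 from 108948806 to 108950233, and 89.1% of its 50-base stretches occur in *Hadhb* transcripts, making up 18.1% of those of *Hadhb*. It was listed at 56.1, 90.0 and 96.8 FPKM in oEV-EMT and at 39.2, 74.8 and 65.2 in oEV-ctrl. The ratio of *Gm13910* to *Hadhb* was nearly the same in all libraries, from 0.568 to 0.666. Whether the fragments came from either gene cannot be told apart in these values. Summed over both, the log2 difference was 0.47, and the groups overlapped.

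**Figure D2:**
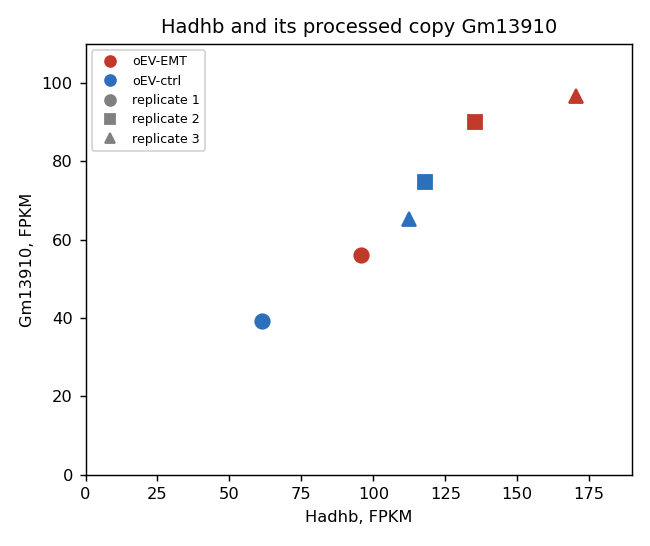
FPKM of the processed pseudogene *Gm13910* against FPKM of *Hadhb*, with a point for each of the 6 libraries. The points lie near a straight line through the origin, with ratios from 0.568 to 0.666 in both groups.

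*Hadh* (ENSMUSG00000027984, chromosome 3 from 131233419 to 131272101, minus strand) encodes the soluble 3-hydroxyacyl-CoA dehydrogenase for chains that the trifunctional protein has already shortened. It measured 347, 365 and 337 FPKM in oEV-EMT and 321, 309 and 349 in oEV-ctrl. The ranges overlapped through oEV-ctrl 3, which lay above oEV-EMT 1 and 3. The log2 fold change was 0.10 with a standard error of 0.17 (limma, 95% interval -0.28 to 0.48), or -0.071 relative to all genes.

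Of the droplet coats, *Plin2* (ENSMUSG00000028494, chromosome 4 from 86648386 to 86670060, minus strand) encodes the perilipin that stays bound to droplets in most cell types, and *Plin3* (ENSMUSG00000024197, chromosome 17 from 56277476 to 56292873, minus strand) encodes one that moves between cytosol and nascent droplets. *Plin2* measured 166, 261 and 140 FPKM in oEV-EMT and 234, 143 and 163 in oEV-ctrl. A single library of each group, oEV-EMT 2 and oEV-ctrl 1, stood above the rest, and the log2 fold change was 0.052 with a standard error of 0.27 (limma, 95% interval -0.55 to 0.66). *Plin3* measured 21.2, 26.2 and 16.5 FPKM against 19.5, 17.8 and 17.5, with oEV-EMT values on both sides of the controls. Its log2 fold change was 0.19 with a standard error of 0.23 (95% interval -0.31 to 0.69). *Plin2* held between 88.6% and 92.1% of the FPKM of the 5 perilipin genes. *Plin5* stayed at or under 1.16 FPKM, *Plin4* at or under 0.0206, and *Plin1* was listed at 0 in 5 libraries.

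**Figure D3:**
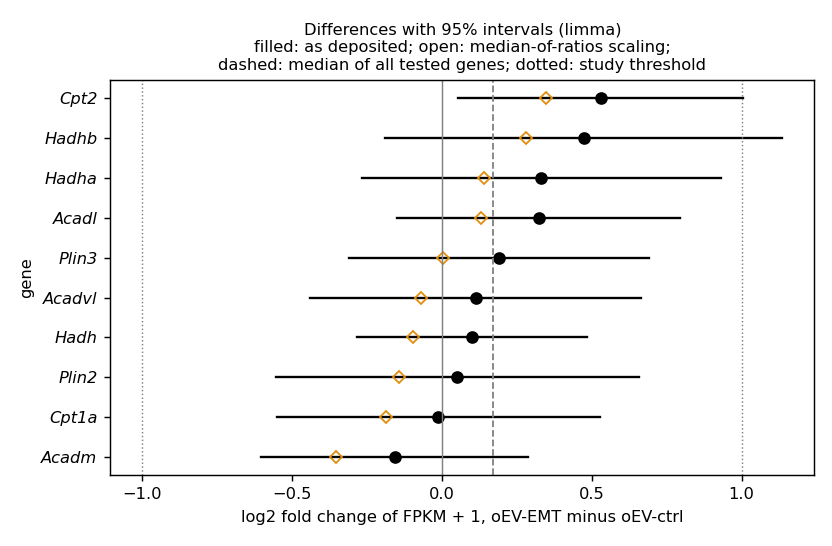
Log2 fold change of each gene, oEV-EMT minus oEV-ctrl, with its 95% interval from limma (black) and the value after median-of-ratios scaling (open diamonds). The interval of *Cpt2* alone lies above 0, and all 10 intervals include the dashed line at 0.17, the median of all tested genes.

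In 9 of the 10 genes the 95% interval included 0. In 8 of the 10 it lay wholly within a log2 fold change of 1 in either direction, the exceptions being *Cpt2* and *Hadhb*. The signs depended on the scaling, with 8 genes above 0 in the deposited values and 5 after median-of-ratios scaling, where *Acadvl*, *Hadh* and *Plin2* turned negative. Several of the overlaps rested on library oEV-EMT 3. Without it, *Cpt1a*, *Acadl*, *Hadha* and *Plin3* joined *Cpt2* in lying above the controls, 5 of the 10 genes, where 30.6% of all tested genes did so.

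Ratios within a library do not depend on the scaling between libraries. The ratio of *Cpt1a* to *Cpt2* was 0.449, 0.430 and 0.292 with oEV-EMT and 0.649, 0.553 and 0.528 with oEV-ctrl. Every oEV-EMT library had less *Cpt1a* per *Cpt2* than any control library. The means were 0.390 ± 0.0856 and 0.577 ± 0.0643 (SD, n = 3 each), a log2 difference of -0.58 (exact two-sided permutation test, p = 0.1, adjusted over 8 ratios 0.267). The ratio of *Hadha* to *Hadhb* was 0.438, 0.270 and 0.136 against 0.331, 0.225 and 0.286, with means of 0.282 ± 0.151 and 0.281 ± 0.0530 (SD, n = 3 each) (exact permutation test, p = 0.8). The ratio of *Plin2* to *Plin3* was 7.83, 9.97 and 8.47 against 12.0, 8.04 and 9.32, and the groups overlapped (exact permutation test, p = 0.6).

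**Figure D4:**
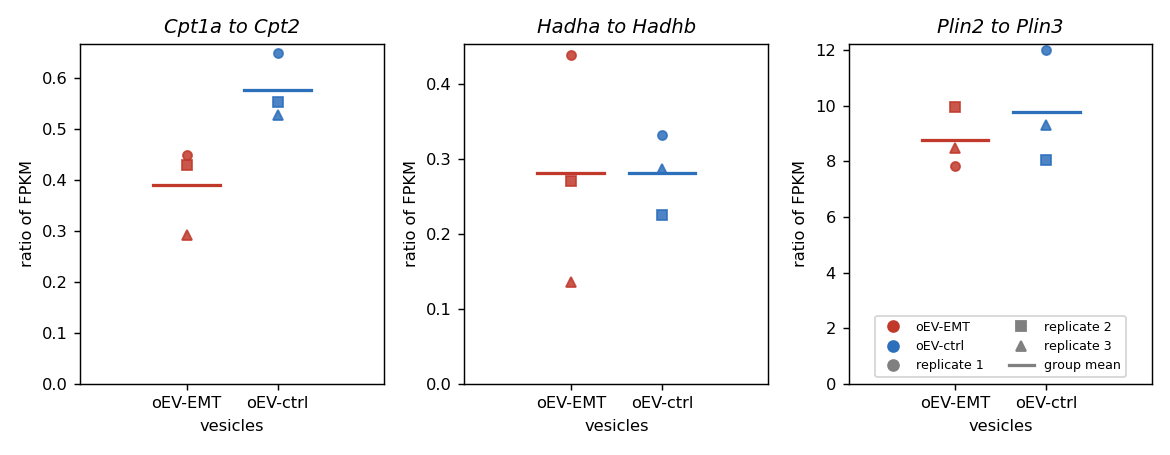
Ratio of FPKM within each library for *Cpt1a* to *Cpt2*, *Hadha* to *Hadhb* and *Plin2* to *Plin3*, with a point for each library and a bar for each group mean on axes that start at 0. The groups are separate for *Cpt1a* to *Cpt2*, with all oEV-EMT ratios at or under 0.449 and all oEV-ctrl ratios at or over 0.528, and overlap for the others.

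The rest of the pathway was taken from lists of 157 further genes, of which 156 were in the table and 108 were tested. None of the 108 met both thresholds. The oEV-EMT libraries all exceeded the controls in 26 of them (24.1%, against 18.1% of all genes) and below in 5 (4.63%, against 4.34%). After median-of-ratios scaling 16 lay above (14.8%, against 9.81%) and 12 below (against 10.3%). The median log2 fold change of the 108 genes was 0.24, or 0.064 relative to all genes. The shares of all genes given here also belong beside the counts of single lists below, on either scale.

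Among all tested genes, 18.1% lay above and 4.34% below without overlap. Of the carnitine shuttle, 1 of 6 tested genes lay above and 1 below without overlap. The former was *Slc25a20*, the carrier that exchanges acylcarnitine for carnitine across the inner membrane between CPT1 and CPT2. It measured 37.3, 37.0 and 29.1 FPKM in oEV-EMT and 20.5, 16.6 and 24.2 in oEV-ctrl, a log2 difference of 0.73 (limma, standard error 0.22, adjusted p = 0.190). *Slc25a20* and *Cpt2* thus each lay above the controls, as 18.1% of all tested genes did, while *Cpt1a* overlapped. These genes were set side by side after their levels had been seen. *Acadvl*, also of the inner membrane, overlapped as well, with a log2 fold change of 0.11 and a standard error of 0.25 (limma). Whether location in that membrane had a part in the *Slc25a20* and *Cpt2* differences was not tested. The ratio of *Slc25a20* to *Cpt1a*, computed after the levels had been seen, was 4.72 ± 0.732 in oEV-EMT and 2.74 ± 0.319 in oEV-ctrl without overlap (SD, n = 3 each; exact permutation test, p = 0.1, adjusted over 8 ratios 0.267). That ratio largely restates the *Slc25a20* difference, because *Cpt1a* differed little (log2 fold change -0.011), and it adds no separate support. The ratio of *Slc25a20* to *Cpt2* overlapped (exact permutation test, p = 0.3). The shuttle gene that lay below was *Slc22a4*, a carnitine and ergothioneine transporter of the plasma membrane. Its means were 6.65 ± 1.08 FPKM in oEV-EMT and 9.52 ± 0.746 in oEV-ctrl (SD, n = 3 each). Of 8 tested genes of fatty acid activation, 0 lay above and 1 below, the long-chain acyl-CoA synthetase *Acsl1*, at 1.08 ± 0.245 against 1.51 ± 0.0512 FPKM (SD, n = 3 each). After median-of-ratios scaling *Acsl3* also lay below.

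Of 19 tested genes listed with mitochondrial β-oxidation, 6 lay above and 0 below, against 18.1% and 4.34% of all genes. Their median was 0.18 relative to all genes. The list also holds enzymes that are not steps of the spiral, such as *Acot2* and *Acot13*, both among those above. *Acot13*, a thioesterase, measured 101, 121 and 142 FPKM in oEV-EMT and 40.3, 73.8 and 64.8 in oEV-ctrl (limma, log2 fold change 1.04, adjusted p = 0.157). *Acads* measured 5.05, 6.50 and 3.91 against 2.22, 1.92 and 3.01, and *Eci1*, the isomerase for unsaturated chains, 8.48, 14.3 and 8.55 against 7.67, 3.99 and 5.64. The groups of *Eci1* overlapped after median-of-ratios scaling. In that scaling 3 of the 19 lay above and 2 below.

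Of 14 tested peroxisomal genes, 4 lay above and 0 below, against 18.1% and 4.34% of all genes. After median-of-ratios scaling 2 lay above, against 9.81% of all genes. *Acox2*, an oxidase of branched chains and bile acid precursors, measured 3.60, 2.48 and 2.37 FPKM in oEV-EMT and 0.124, 1.54 and 0.895 in oEV-ctrl. The log2 difference was 1.11 (limma, standard error 0.30, adjusted p = 0.164). *Decr2* and *Scp2* had log2 fold changes of 0.49 and 0.43, and their groups overlapped after median-of-ratios scaling.

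Among the other lipid droplet genes, 3 of 10 lay above and 2 below, against 18.1% and 4.34% of all genes. *Hilpda*, which restrains triglyceride lipase on droplets, measured 175, 201 and 174 FPKM against 79.8, 126 and 121 (log2 fold change 0.77, adjusted p = 0.174 from limma). *Bscl2*, which encodes seipin of nascent droplets, measured 15.3, 12.8 and 15.1 against 7.85, 7.42 and 10.3. *Hsd17b11*, a dehydrogenase that resides on droplets, measured 1.07, 1.69 and 1.20 against 0.486, 0.572 and 0.690. It passed the filter of 1 FPKM only through the oEV-EMT libraries and did not pass it after median-of-ratios scaling, where 2 genes of the list lay above and 2 below. *Cidea*, a factor of droplet fusion, was lower at 16.5, 15.5 and 9.81 against 19.8, 20.7 and 17.4, and *Spast*, a microtubule-severing protein also found on droplets, was lower at 5.64, 4.29 and 4.26 against 7.11, 7.95 and 7.02. *Plin2* and *Plin3* overlapped between the groups whereas *Hilpda* did not.

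The genes of triglyceride synthesis had the highest median of the 10 pathway lists, 0.31 relative to all genes, with 10 of 11 over the median of all genes. The medians of the epiblast and primitive endoderm marker lists were higher still, at 0.48 and 0.35 relative to all genes, and their part in this difference was not tested. Of all genes, 18.1% lay above and 4.34% below in the deposited values, and 9.81% above after median-of-ratios scaling. The groups were apart with higher oEV-EMT values in 4 of the 11, in the deposited values as after median-of-ratios scaling, and with lower values in 0. They included the acyltransferases *Mogat2*, with 6.32 ± 1.78 against 2.88 ± 0.544 FPKM, *Agpat4*, with 14.6 ± 2.60 against 8.13 ± 0.997, and *Gpat3*, with 31.4 ± 7.66 against 19.1 ± 2.07 (SD, n = 3 each). Of 7 genes of lipolysis, 3 lay above and 0 below. *Pnpla2*, the adipose triglyceride lipase, measured 9.27, 5.35 and 4.64 against 2.44, 2.74 and 3.59. *G0s2*, its inhibitor, measured 4.31, 3.30 and 2.65 against 1.99, 1.52 and 2.13. *Abhd5*, its coactivator, had a log2 fold change of 0.22 and overlapped after median-of-ratios scaling.

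Of 12 genes of fatty acid synthesis, 2 lay above and 0 below, against 18.1% and 4.34% of all genes. *Slc25a1*, the mitochondrial citrate carrier, measured 12.2, 10.9 and 8.34 FPKM against 6.10, 4.37 and 7.89, and *Hacd3*, a dehydratase of chain elongation, had a log2 fold change of 0.22. After median-of-ratios scaling *Hacd3* overlapped and *Scd1*, a desaturase, lay below. Of 7 genes of fatty acid binding and uptake, 1 lay above (*Acbd5*, a peroxisomal acyl-CoA binding protein, 0.46) and 1 below. The latter was *Fabp3*, the heart form of the fatty acid binding proteins, at 6039, 5328 and 5506 FPKM in oEV-EMT and 7180, 8657 and 6794 in oEV-ctrl (log2 fold change -0.42, adjusted p = 0.294 from limma). After median-of-ratios scaling *Acbd5* overlapped, and *Acbd3* lay below beside *Fabp3*. Of 14 transcriptional regulators, 2 lay above and 0 below, *Srebf1* (0.41), a factor of lipid synthesis, and *Tfam* (0.32), a factor of mitochondrial DNA. After median-of-ratios scaling *Tfam* overlapped, and *Ppargc1b*, a coactivator of oxidative genes, and *Foxo1*, a forkhead factor, lay below. *Ppara*, the nuclear receptor best known to drive *Cpt1a*, *Acadm* and *Plin2*, did not exceed 0.154 FPKM, and *Ppargc1a* was listed at 0 in every library.

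**Figure D5:**
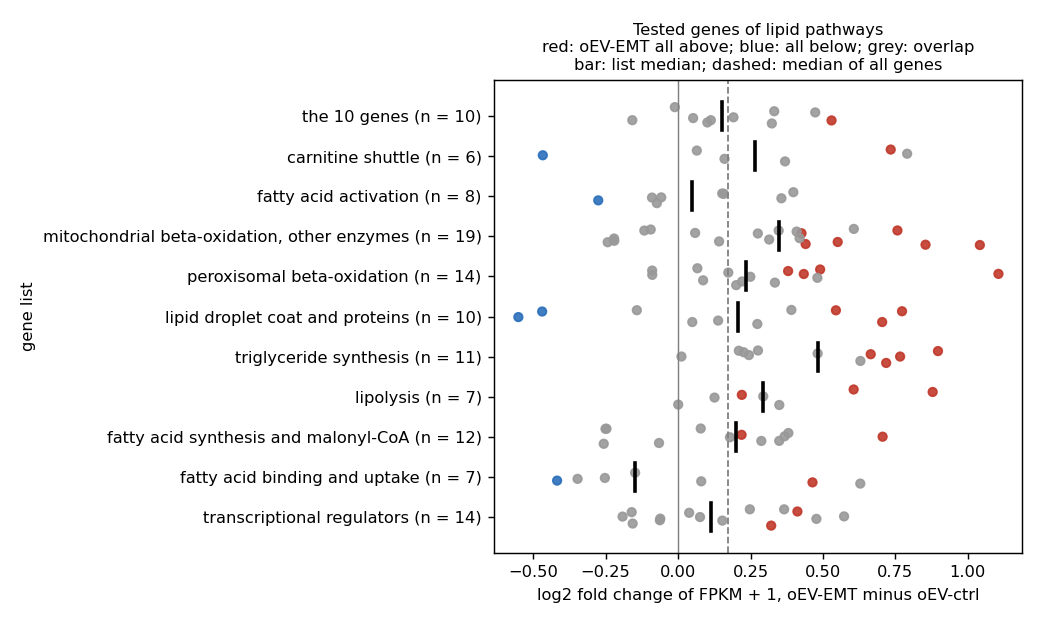
Log2 fold change of each tested gene by list, oEV-EMT minus oEV-ctrl, coloured by whether the oEV-EMT values were all above (red) or all below (blue) the oEV-ctrl values, with a bar at each list median. The median of the 10 genes, 0.15, is close to the dashed line at 0.17 for all tested genes, while triglyceride synthesis has the highest median of the lists drawn, at 0.48.

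The make-up of the blastocysts was checked with markers of their cell types. The 7 trophectoderm markers were all expressed, and their summed level ranged from 3123 to 4734 FPKM in oEV-EMT and from 3075 to 4826 in oEV-ctrl. Their median log2 fold change was -0.19 relative to all genes, with 6 under and 1 over the median of all genes. The groups overlapped in each of the 7. Of the 6 epiblast markers, whose summed levels did not overlap, 3 (*Pou5f1*, *Nanog* and *Fgf4*) lay above in each oEV-EMT library, where 18.1% of all genes did. *Sox2*, *Klf2* and *Tdgf1* overlapped, with log2 fold changes of -0.32, 0.071 and 0.32, and *Nanog* and *Tdgf1* had the highest levels in the sum. Of 5 primitive endoderm markers 2 lay above, *Gata4* and *Sox7*. *Gata6* had a log2 fold change of -0.19, and after median-of-ratios scaling *Sox7* overlapped and *Gata6* lay below. The part of these markers in the differences of *Slc25a20* and *Hilpda* was not tested either. Markers of cells that could have come along had low summed levels, at most 0.486 FPKM for 7 markers of cumulus and granulosa cells, 0.349 for 4 of oviduct epithelium, 0.843 for 3 of sperm and 2.22 for 4 of blood. The blood sum was nearly all *Hba-a1*, an α globin, which reached 1 FPKM in 3 libraries and passed the filter, and its groups overlapped. Of these markers, *Ptx3*, *Amh*, *Cyp19a1*, *Inhba*, *Foxj1*, *Wt1*, *Ptprc*, *Hbb-bs* and *Tnp1* were listed at 0 in every library.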

How the data were processed

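Total RNA of 6 pools of 10 blastocysts was selected for polyadenylated RNA and sequenced by the authors. Per the labels and the study's methods, reads were aligned to mm10 and assembled with StringTie along a reference annotation. The aligner and the versions are not given in the sources used here. The authors deposited 1 value per gene and library. TPM is named in the methods of the study. Library sums were unequal and over 1000000, which TPM does not allow, so the deposited values were taken as FPKM. Depth is unknown, and no counting interval was computed.

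Identifiers were matched to GENCODE M21 (GRCm38), and 55141 of 55487 had a symbol. *Spart* was matched through its older symbol, and *Tmlhe* was not analysed here. Genes at 1 FPKM or more in at least 3 libraries were fitted as log2(FPKM + 1) with limma 3.58.1 (trend, robust, 95% intervals) in R 4.3.3, after a test on simulated data. Ratios were compared with exact permutation tests in scipy 1.17.1. Of the 8 ratios, 3 were planned and 5 were added after the levels had been seen. Sequence sharing was searched as identical stretches of 50 bases on either strand in GENCODE M21 transcripts. Promoter sequences are from RefSeq.

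The 10 genes, the lists and the tests were chosen with earlier results of these data known. All 10 genes are described. Of each further list, up to 3 genes per direction without overlap between groups are named, by unadjusted limma p, as are the family partners of the 10 genes. Alternatives covered scaling, filter, pseudocount, thresholds, variance prior, library weights, a block for replicate number and the omission of each library.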

Additional observations from a re-analysis of the deposited data

How the results depend on the processing

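None of the 10 genes passed both thresholds under any of the 15 alternative fits (limma). Over all genes 0 passed in the deposited values, 4 with a filter of 1 FPKM in every library, 104 with library weights, and from 0 to 16 when any single library was omitted, the highest without oEV-ctrl 3. With the adjusted p-value alone 0 passed, and 1831 had an unadjusted p-value of at most 0.05. *Cpt2* was higher in oEV-EMT under all 15 alternatives, with log2 fold changes from 0.28 to 0.65 and adjusted p-values from 0.171 to 0.666, and its groups stayed apart in each. Apart from the changes of scaling, these alternatives reuse the same values or leave some out. In those, *Cpt2* could neither overlap nor change direction, because its groups were already apart. *Acadl*, *Hadha* and *Hadhb* also stayed above 0 and *Acadm* below 0 under all 15. The number of the 10 genes without overlap was 3 after upper quartile scaling, where *Acadm* and *Hadh* lay below (all genes: 7.41% above, 12.6% below, median -0.047), and from 1 to 5 with each library left out, the highest without oEV-EMT 3. *Hadhb* joined *Cpt2* above without oEV-EMT 1, as 27.2% of all genes did, *Hadh* joined above without oEV-ctrl 3 (28%), and *Acadm* lay below without oEV-EMT 2 (6.84%). The median of the 10 genes relative to all genes moved from -0.020 to 0.13 without a filter, when 31842 genes entered the median, and to 0.20 with library weights, where the cause was not tested.

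Signs reversed in 5 genes with small differences. After median-of-ratios scaling the log2 fold change was -0.071 for *Acadvl*, -0.095 for *Hadh* and -0.14 for *Plin2*. After upper quartile scaling it was -0.14, -0.16 and -0.21 for these genes and -0.063 for *Plin3*. *Cpt1a* was 0.069 after scaling to a sum of 1000000 and 0.019 with library weights. With each library left out, *Cpt1a* ranged from -0.14 to 0.20, *Acadvl* from -0.084 to 0.23 and *Plin2* from -0.21 to 0.26. The log2 difference of the ratio of *Hadha* to *Hadhb* ranged from -0.53 to 0.31, the highest without oEV-EMT 3, and that of *Plin2* to *Plin3* from -0.28 to 0.0099, the highest without oEV-ctrl 1. That of *Cpt1a* to *Cpt2* stayed between -0.70 and -0.39, and its sign could not change, because its groups were apart in the full set.

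Groups share replicate numbers, but deviations of same-numbered libraries correlated at 0.119, -0.0442 and 0.0388 across genes, and not every library correlated best with its own number, so the number was taken as a name. With a replicate block 21 genes passed both thresholds over all genes and 0 of the 10. There were only 3 libraries per group, and their depth is unknown. The *Cpt2* difference passed the adjusted threshold neither in the main fit nor under any alternative (limma, adjusted p at least 0.171). This does not show that its level was equal in the groups.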

Other observations

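*Scd2*, a stearoyl-CoA desaturase that makes monounsaturated fatty acids, split the control libraries. It was chosen after its values were seen. It measured 0.544, 0.450 and 0.310 FPKM in the oEV-EMT libraries, 0.124 in oEV-ctrl 1, and 15.8 and 16.8 in oEV-ctrl 2 and 3. With 1 FPKM reached in only 2 libraries it did not pass the filter and was not tested. *Scd1*, the paralogue, measured 16.7, 17.6 and 17.8 FPKM in oEV-EMT and 17.8, 22.5 and 22.7 in oEV-ctrl, so that oEV-ctrl 1 lay near the oEV-EMT libraries and under oEV-ctrl 2 and 3 for this gene too, by a much smaller margin.

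Other genes of lipid handling, also chosen after their values were seen, varied widely within a group. *Fabp5*, an epidermal fatty acid binding protein, measured 57.2, 236 and 211 FPKM in oEV-EMT and 130, 171 and 220 in oEV-ctrl. *Etfb*, a subunit of the flavoprotein that takes electrons from the acyl-CoA dehydrogenases, measured 422, 1317 and 719 FPKM against 1019, 600 and 1036, while its partner *Etfa* measured 281, 460 and 387 against 489, 401 and 424. Both subunits were lowest in library oEV-EMT 1.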
